A study of Mus musculus with 11 samples.

Results

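Gene-dense segments are the 1 Mb intervals of the mouse genome build mm9 in which at least 20 protein-coding genes start. They were found by dividing chromosomes 1 to 19 into bins of 1 Mb from the first base and counting the gene starts of the GENCODE vM1 annotation in each bin. Of 2482 segments, 291 were gene-dense, and the remaining 2191 are called other segments here. The gene-dense segments made up 11.7% of the segments and held 8918 of 21418 protein-coding genes, or 41.6%. ChIP-seq peaks of the transcription factors (TFs) ZIC2, OTX2, SOX2, POU5F1 and POU3F1 in epiblast stem cells (EpiSCs), which are pluripotent cells derived from the epiblast of the early mouse embryo, were described in these segments. All cells came from an EpiSC line of strain 129/Sv grown without feeder cells in a medium to which Fgf2 (10 ng/ml) and activin (20 ng/ml) were added. Every profiled culture had received a plasmid from which 1 of the TFs, tagged with the biotin acceptor sequence BLRP, and the biotin ligase BirA were expressed under the CAG promoter, in addition to the TF made by the cells. Biotinylated chromatin was pulled down with streptavidin. The EpiSC libraries came from cells kept in activin until harvest, and the activin-free EpiSC libraries from cells deprived of activin for the last 18 h. There was 1 library for each TF in each culture.

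ZIC2 is a zinc finger protein that binds GC-rich DNA, OTX2 is a homeodomain protein of the epiblast and the anterior neural plate, SOX2 has an HMG box that binds the minor groove of AT-rich sites, and POU5F1 (also called OCT4) and POU3F1 (also called OCT6) bind octamer-like sites through a POU domain. Gene-rich parts of mammalian chromosomes are typically rich in GC and in CpG islands, the unmethylated stretches at which most housekeeping genes start. Gene-dense regions of another kind arose by tandem duplication of a single gene family, such as the olfactory receptors, whose members are silent in most tissues and start at CpG-poor sequence.

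The sequences below show what the peaks of each TF in gene-dense segments look like at the level of bases. For each TF the central 100 bp are given of the highest-scoring EpiSC peak that was at most 1000 bp wide, overlapped a peak of the same TF in activin-free EpiSCs and held no exon in these 100 bp. Letters are from the plus strand of mm9, and capitals mark a match to the binding letters searched for the TF on either strand, which were CCTGCTG for ZIC2, GGATTA for OTX2, ACAAAG or ACAATG for SOX2, and ATGCAAAT or ATGCTAAT for POU5F1 and POU3F1.

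ZIC2, chr7:31791092-31791191: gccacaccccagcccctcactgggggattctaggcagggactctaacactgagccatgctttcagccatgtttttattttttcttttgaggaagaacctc
OTX2, chr12:88667227-88667326: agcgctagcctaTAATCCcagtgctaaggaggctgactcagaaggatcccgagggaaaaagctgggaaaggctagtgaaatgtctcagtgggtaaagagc
SOX2, chr11:83792982-83793081: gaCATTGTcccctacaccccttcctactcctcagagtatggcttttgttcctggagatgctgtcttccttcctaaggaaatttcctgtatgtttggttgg
POU5F1, chr7:16781240-16781339: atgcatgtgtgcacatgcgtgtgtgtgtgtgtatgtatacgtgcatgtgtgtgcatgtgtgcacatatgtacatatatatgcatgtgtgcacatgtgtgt
POU3F1, chr8:72093607-72093706: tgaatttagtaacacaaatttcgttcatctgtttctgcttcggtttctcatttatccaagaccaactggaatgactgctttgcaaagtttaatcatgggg

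The ZIC2 peak lay between genes 23.0 kb from the start of Lsr, in a segment with 59 gene starts, and scored 1770 in EpiSCs and 3100 in activin-free EpiSCs. The OTX2 peak lay in an intron of Sptlc2 and the SOX2 peak in an intron of Synrg, which codes for a gamma-synergin of vesicle transport. The POU5F1 peak lay between genes 20.6 kb from the start of Meis3, a homeobox gene, in a stretch rich in repeated TG bases. Its central 100 bp held neither ATGCAAAT nor ATGCTAAT, and looser forms of the octamer were not searched. The POU3F1 peak lay between genes 47.0 kb from the start of Gm7697. These 3 highest-scoring narrow peaks of ZIC2, POU5F1 and POU3F1 held none of the letters searched within their central 100 bp. Peaks of ZIC2 and POU3F1 that did hold the letters were therefore selected after values were seen, in segments with and without a dominant gene family. The same limits on width, exons, chromosome and the other culture were used.

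ZIC2, mixed segment, chr4:132649486-132649585: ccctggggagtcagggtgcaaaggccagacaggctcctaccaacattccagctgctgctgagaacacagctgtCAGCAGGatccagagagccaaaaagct
ZIC2, olfactory receptor segment, chr10:128838060-128838159: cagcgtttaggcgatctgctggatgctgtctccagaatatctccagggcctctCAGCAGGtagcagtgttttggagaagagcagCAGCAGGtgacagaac
POU3F1, mixed segment, chr9:50264279-50264378: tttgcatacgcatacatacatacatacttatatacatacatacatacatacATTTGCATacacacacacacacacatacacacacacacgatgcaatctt
POU3F1, olfactory receptor segment, chr2:87689479-87689578: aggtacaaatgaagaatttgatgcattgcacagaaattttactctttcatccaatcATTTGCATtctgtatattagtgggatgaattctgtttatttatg

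The ZIC2 peak of the mixed segment lay 36.9 kb from the start of Wasf2 and scored 1405, and that of the olfactory receptor segment lay 13.4 kb from the start of Olfr784, scored 467 and held 2 matches. The POU3F1 peaks scored 504 and 326, with GC contents of 34% and 30% in the 100 bp shown, against 57% and 54% for the ZIC2 peaks.

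The 10 lists held 59787 to 119730 peaks on chromosomes 1 to 19. With 1 library for each TF and culture, no difference between cultures or TFs has a replicate error, and no test was made. Shares are given with 95% Wilson intervals, and medians with order-statistic intervals, which cover counting error only. Read depth behind the lists is unknown. A score of exactly 3100 recurred for ZIC2, POU5F1 and POU3F1 in both cultures. Whether it is a fixed value was not tested, and steps to or from it cannot be read as measured changes. Peaks were assigned to segments by their midpoint. Pou5f1 itself lies in a gene-dense segment of chromosome 17. The tagged POU5F1 was expressed from a plasmid with the same coding sequence, so that plasmid and genome cannot be told apart in the POU5F1 peaks of score 3100 over its exons in both cultures. Peaks over the exons of the 5 TF genes were not used to name genes.

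Gene-dense segments differed from other segments in base composition. Their median GC content was 46%, against 41.3% in other segments, and the median number of CpG dinucleotides per kb was 11.6 against 7.79. They formed 148 runs of adjacent segments, of which 83 were single segments and the longest had 9. In 58 of the 291 segments at least 40% of the genes belonged to 1 clustered family, out of 45 families listed, and these are called family segments. The remaining 233 are called mixed segments. Families were matched by gene name and counted singly, so a mixed segment can still hold several families or unmatched family members. Family segments had a median GC content of 40.6%, close to that of other segments, and mixed segments 46.8%. Olfactory receptors made up 31 family segments and vomeronasal receptors 8.

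ZIC2 peaks were most frequent in the gene-dense segments and POU3F1 peaks least frequent. In EpiSCs, 35125 ZIC2 peaks, or 29.3% of the list (29.1 to 29.6), lay in gene-dense segments, which hold 12.1% of the sequence. OTX2 followed with 21.7%, then SOX2 with 7.87% and POU5F1 with 7.20%, and POU3F1 was lowest with 4.05%. In activin-free EpiSCs these shares were 29.8%, 16.7%, 8.47%, 7.01% and 4.19%, in the same order of TFs. The order of the TFs was thus the same in both cultures, with ZIC2 and OTX2 above the share of sequence and the remaining TFs below it. Density was 121 ZIC2 peaks per Mb in gene-dense and 40.2 in other segments, a ratio of 3.02. For POU3F1 the ratio was 0.307, with 14.7 and 47.8 peaks per Mb.

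The contrast was larger once the family segments were set apart. In mixed segments ZIC2 reached 141 peaks per Mb in EpiSCs and 128 in activin-free EpiSCs, 3.5 and 3.58 times the density of other segments. POU3F1 had 7.08 and 7.20 peaks per Mb there, 0.148 and 0.167 times the density of other segments. Per mixed segment, the number of ZIC2 peaks in EpiSCs ranged from 9 to 331 with a median of 137, and that of POU3F1 peaks from 0 to 93 with a median of 3. No POU3F1 peak was listed in 41 of the 233 mixed segments in EpiSCs and in 18 in activin-free EpiSCs. At least 1 peak of ZIC2, OTX2, SOX2 and POU5F1 was listed in every mixed segment in both cultures. OTX2 had a median of 87 peaks per mixed segment in EpiSCs (11 to 146) and 70 in activin-free EpiSCs (11 to 129). SOX2 and POU5F1 were sparser, with medians of 14 and 13 in EpiSCs and 20 and 22 in activin-free EpiSCs. ZIC2 peaks covered 178 kb per Mb of mixed segments and 40.4 kb per Mb of other segments in EpiSCs, and POU3F1 peaks covered 7.66 and 60.9 kb per Mb.

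Density changed with gene number without a step at the threshold. Segments with 18 or 19 gene starts, just outside the rule, held 105 ZIC2 and 11.3 POU3F1 peaks per Mb in EpiSCs, and those with 20 or 21, just inside it, held 111 and 14.2. Among mixed segments, ZIC2 density was 125 peaks per Mb at 20 to 29 genes, 152 at 30 to 39 and 192 at 40 or more, while POU3F1 density was 8.53, 5.18 and 3.79. OTX2 density hardly differed between the upper classes, at 92.8 and 93.0 peaks per Mb in EpiSCs, and in activin-free EpiSCs it was 71.8 at 30 to 39 genes and 65.7 at 40 or more.

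**Figure D1:**
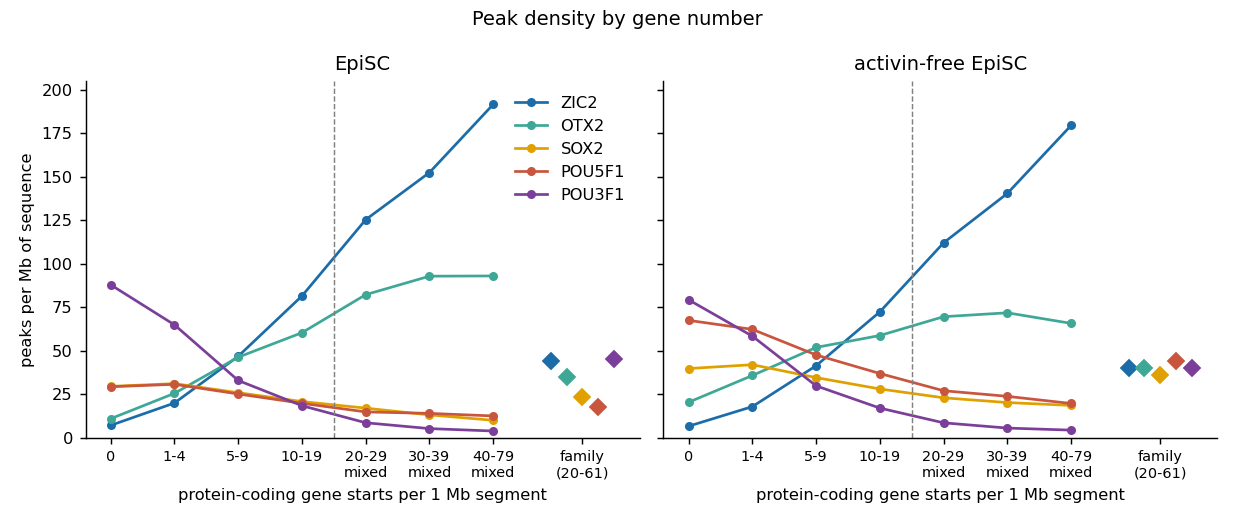
Peaks per Mb of sequence (vertical axis) in segments grouped by the number of protein-coding gene starts (horizontal axis), in EpiSCs (left) and activin-free EpiSCs (right). Each line is 1 TF, the dashed line marks the threshold of 20 gene starts, and diamonds give the 58 family segments. ZIC2 climbs to 192 peaks per Mb in EpiSCs and POU3F1 falls to 3.79, and the diamonds pool family segments of unlike GC content.

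The segments with the most genes illustrate the range. The segment at chr11:99000001-100000000 held 79 gene starts, the highest number, 22 of them of keratin-associated proteins, which build the hair shaft, and 97 ZIC2, 47 OTX2, 2 SOX2, 25 POU5F1 and 18 POU3F1 peaks in EpiSCs. At chr7:52000001-53000000, with 69 genes, the numbers were 256, 124, 2, 7 and 0, in the same order of TFs. In the major histocompatibility complex, which codes for antigen-presenting proteins, the segment at chr17:35000001-36000000 had 68 genes and 217 ZIC2 peaks, and 1 POU3F1 peak was listed. The segment with the fourth-highest number, chr7:110000001-111000000, was a family segment. Of its 61 genes 55 were olfactory receptors, and it held 3 ZIC2 and 122 POU3F1 peaks in EpiSCs and 2 and 109 in activin-free EpiSCs. The highest ZIC2 numbers were in the adjacent segments at chr10:79000001-80000000 and chr10:80000001-81000000, with 331 and 306 peaks in EpiSCs and 327 and 339 in activin-free EpiSCs. Their GC contents were 53.6% and 53.7%, and neither had a POU3F1 peak in EpiSCs.

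By summed peak width, ZIC2 density was above POU3F1 density in nearly all mixed segments. Peak widths were summed per segment and divided by the mean over the 2401 segments with at least 500000 sequenced bases. By this measure ZIC2 exceeded POU3F1 in 252 of 291 gene-dense segments (86.6%) in EpiSCs, against 48% of all segments. The number was 226 of 233 (97%) in mixed segments, 26 of 58 (44.8%) in family segments and 900 of 2110 (42.7%) in other segments. In activin-free EpiSCs it was 256 of 291 (88.0%) against 48.4% of all segments. By the number of peaks, ZIC2 did not exceed POU3F1 in 4 mixed and in 33 family segments in EpiSCs.

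ZIC2 numbers went up with GC content among the gene-dense segments. Across the 291 segments, Spearman's rho between GC content and the number of ZIC2 peaks in EpiSCs was 0.975, and that between gene number and ZIC2 peaks was 0.131. The range of gene number is cut by the rule, and within the 233 mixed segments the value for gene number was 0.312 and in other segments 0.718. For POU3F1 the values over the 291 segments were -0.727 and -0.0537. These are descriptions across segments that share libraries and neighbours. OTX2 peaks had a rho of 0.437 with GC content in EpiSCs and 0.138 in activin-free EpiSCs, SOX2 -0.686 and -0.754, and POU5F1 -0.141 and -0.429.

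At like GC content, ZIC2 and OTX2 peaks in EpiSCs were still more frequent in mixed than in other segments, by less than before. In activin-free EpiSCs OTX2 was an exception at 40 to 42% GC, with 48.1 peaks per Mb in mixed and 51.1 in other segments. In segments of 42 to 44% GC, ZIC2 density in EpiSCs was 62.7 peaks per Mb in 26 mixed and 42.8 in 431 other segments, and OTX2 density was 73.8 and 51.3. From 48 to 50% GC the ZIC2 values were 197 and 182, and from 50% GC upwards 252 and 251, so that the difference was small at the GC-rich end. OTX2 remained apart there, at 71 and 51.1 peaks per Mb. POU3F1 density in EpiSCs was lower in mixed than in other segments in every GC class. It was 23.6 and 42.5 peaks per Mb at 40 to 42% GC, and 15.7 and 20.9 at 42 to 44% GC. From 48 to 50% GC the values were 1.963 and 2.737. Under 40% GC, where only 2 mixed segments lay, they were 80.5 and 90.3. POU5F1 was lower in mixed than in other segments at 46 to 48% GC, with 12.7 and 18.7 peaks per Mb. SOX2 was the exception, with 13.1 peaks per Mb in mixed and 9.79 in other segments of 46 to 48% GC, although its density over all mixed segments was below that of other segments.

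**Figure D2:**
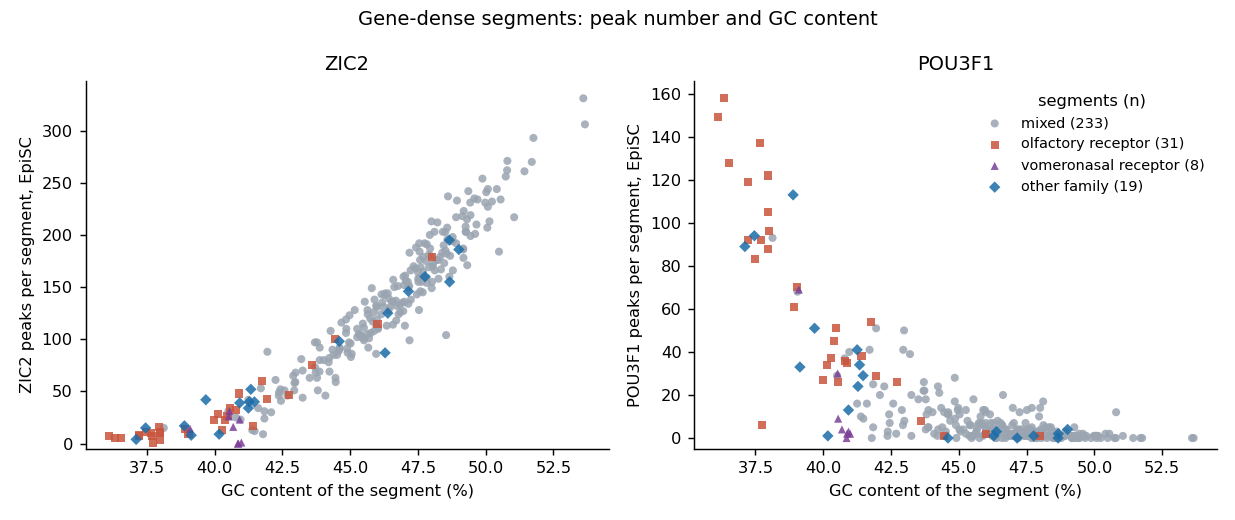
Number of ZIC2 (left) and POU3F1 (right) peaks in EpiSCs against the GC content of each of the 291 gene-dense segments. Points are segments, coloured by kind. ZIC2 numbers climb along 1 band up to 331 peaks, with 45 of the 58 family segments under 42% GC and 9 from 46% GC upwards, and POU3F1 numbers reach 158 in an olfactory receptor segment and are at most 20 from 46% GC upwards.

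Peaks of ZIC2 were wider, higher-scoring and closer together in gene-dense segments, and those of POU3F1 narrower and lower-scoring. The median ZIC2 width in EpiSCs was 995 bp (988 to 1002) in gene-dense and 826 bp (823 to 829) in other segments, and 13.0% and 5.91% of peaks exceeded 2000 bp. The median score, which is 10 times the negative log10 of the MACS p-value, was 220 against 156, and the median gap between midpoints of adjacent ZIC2 peaks in a segment was 3474 bp against 6452 bp. Activin-free EpiSCs gave widths of 920 and 783 bp, scores of 255 and 183, and gaps of 3579 and 7200 bp. OTX2 peaks had nearly the same width in both kinds of segments, 828 and 798 bp in EpiSCs, with scores of 107 and 97.7 and gaps of 5935 and 10455 bp.

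SOX2 and POU peaks lay farther apart in gene-dense segments. The median gap in EpiSCs was 22363 bp for SOX2 and 30468 bp for POU5F1, against 16220 and 17627 bp in other segments. SOX2 peaks had median widths of 711 and 728 bp, and POU5F1 peaks 948 and 965 bp. POU5F1 scores, 138 in gene-dense and 134 in other segments, had overlapping intervals. In mixed segments the median POU3F1 width was 883 bp (859 to 910) and the median score 141, against 1041 bp (1037 to 1045) and 198 in other segments, and 7.63% against 13.5% of peaks exceeded 2000 bp. The few POU3F1 peaks of mixed segments were nevertheless not evenly spread. Their median gap was 7606 bp. Each gap was also divided by the mean gap expected from the peak number of its own segment. The median of these relative gaps was 0.176 in mixed and 0.486 in other segments. Segments with a single POU3F1 peak give no gap, and those rich in peaks give more gaps. For ZIC2 the median relative gap was 0.579 in mixed and 0.540 in other segments.

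At like GC content the differences in ZIC2 width and score were smaller, and the difference in gap was smaller only at higher GC content. From 46% GC upwards, the median ZIC2 width in EpiSCs was 1030 bp in mixed and 928 bp in other segments, the score 235 and 192, and the gap 3173 and 3566 bp. Under 42% GC the gaps were 11886 and 27513 bp, farther apart than over all segments, with widths of 829 and 739 bp. For POU3F1 from 46% GC upwards, the widths were 815 and 788 bp and the scores 120 and 122. Under 42% GC the POU3F1 widths were 960 and 1074 bp and the scores 156 and 210.

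Starts of genes in mixed segments lay in ZIC2 peaks more often than those in other segments, and starts in family segments far less often. In EpiSCs, 5047 of 6953 starts of mixed segments (72.6%, 71.5 to 73.6), 7977 of 12500 in other segments (63.8%, 63.0 to 64.7) and 432 of 1965 in family segments (22.0%, 20.2 to 23.9) lay within a ZIC2 peak. In mixed segments, 4736 starts were within a ZIC2 peak in both cultures, 311 in EpiSCs alone and 138 in activin-free EpiSCs alone. OTX2 peaks held 11.5%, 9.56% and 5.09% of the starts, respectively. POU3F1 had the opposite order, with 0.302% (0.198 to 0.461) in mixed, 1.38% in other and 7.79% (6.68 to 9.06) in family segments. SOX2 peaks held 1.06% of the mixed starts in EpiSCs and 5.29% in activin-free EpiSCs, where 319 starts were in a SOX2 peak of that culture alone. In other segments SOX2 showed like shares of 1.62% and 5.27%.

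The ZIC2 share went up with the number of CpG dinucleotides within 250 bp of the start. The OTX2 share did not, and was largest at 15 to 29 CpGs, with 21.3% in mixed and 16% in other segments in EpiSCs. Starts with 30 or more CpGs lay in a ZIC2 peak in 96.2% of cases in mixed, 94.9% in family and 95.8% in other segments in EpiSCs, so that these classes could hardly be distinguished. Such starts made up 44.9% of the genes in mixed, 48.2% in other and 10.9% in family segments. The classes separated at CpG-poor starts. With at most 4 CpGs, 25.5% (22.8 to 28.5) of 898 starts in mixed segments were in a ZIC2 peak, against 6.07% (5.04 to 7.30) of 1730 in other and 3.73% (2.81 to 4.94) of 1234 in family segments. For comparison, ZIC2 peaks covered 178 kb of each Mb in mixed, 48.2 kb in family and 40.4 kb in other segments. POU3F1 peaks held 11.4% (9.69 to 13.2) of the CpG-poor starts in family, 6.24% (5.2 to 7.48) in other and 1.45% (0.848 to 2.46) in mixed segments. From 15 CpGs upwards, at most 0.680% of the starts of any class lay in a POU3F1 peak in EpiSCs. In activin-free EpiSCs, POU3F1 peaks held 2.60% of the starts with 30 or more CpGs in mixed and 2.57% in other segments, compared with 0.128% and 0.232% in EpiSCs.

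**Figure D3:**
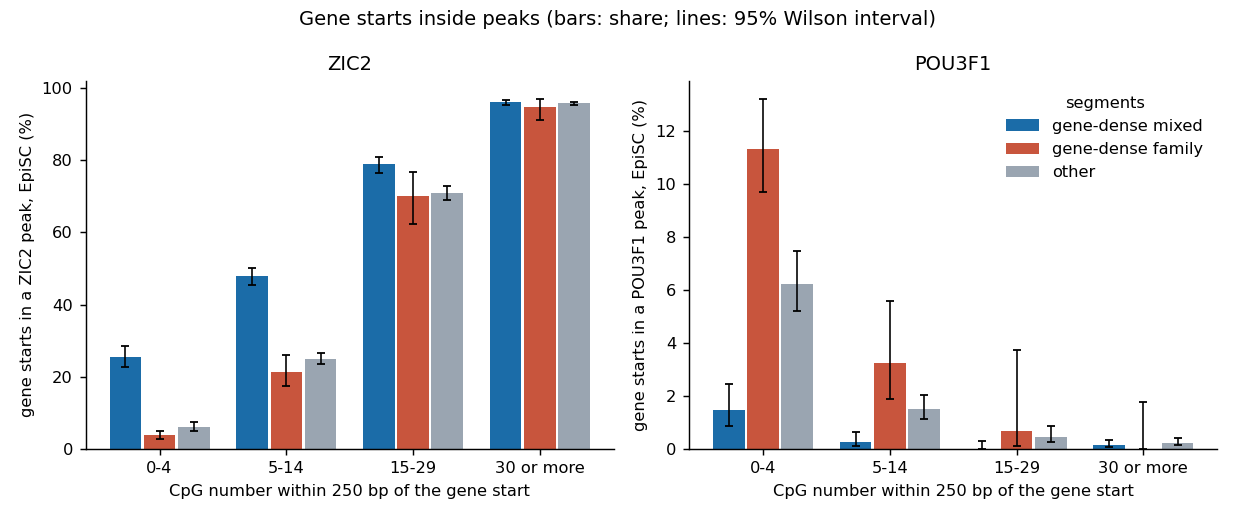
Share of protein-coding gene starts (%) inside a ZIC2 peak (left) or a POU3F1 peak (right) in EpiSCs, by the number of CpGs within 250 bp of the start. Bars are shares and lines 95% Wilson intervals for counting error, and the vertical scales of the panels differ. ZIC2 shares meet near 95% at CpG-rich starts, and at CpG-poor starts the mixed segments stand at 25.5% and the family segments have the largest POU3F1 share, 11.4%.

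Over all peaks, those over a start included, ZIC2 and POU3F1 peaks lay closer to gene starts in gene-dense than in other segments. The median distance of a ZIC2 peak to the nearest protein-coding start was 8.75 kb in gene-dense and 34 kb in other segments in EpiSCs, and for POU3F1 it was 8.33 and 188 kb. This distance is limited by the rule itself, as at least 20 genes start in each segment. The share of peaks of gene-dense segments with a midpoint within 1 kb of a start was highest for ZIC2 at 14.7% in EpiSCs. It was 8.53% (OTX2), 6.81% (SOX2), 4.21% (POU5F1) and 7.02% (POU3F1). The POU3F1 value pools unlike segments, with 9.07% in family segments under 42% GC. In mixed segments under 42%, of 42 to 46% and from 46% GC it was 7.5%, 2.83% and 1.55%. In other segments of these GC classes it was 0.329%, 0.511% and 0.647%.

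Overlap with ZIC2 peaks was more frequent for every other TF in mixed than in other segments. Overlap was counted from 1 shared bp. In EpiSCs, 29% of OTX2 peaks in mixed and 15.1% in other segments overlapped a ZIC2 peak, and in activin-free EpiSCs 23.3% and 10.3%. For SOX2 the shares were 16.5% and 4.73%, for POU5F1 17.6% and 4.72%, and for POU3F1 3.97% and 1.31% in EpiSCs. As a share of ZIC2 peaks, overlap with OTX2 was 17.5% in mixed and 13.9% in other segments in EpiSCs, and 13.1% and 12.6% in activin-free EpiSCs. When the shared part had to be at least 50% of both peaks, the ZIC2 share over all gene-dense segments was 0.985 times that of other segments, a reversal of the ratio of 1.25 found with 1 shared bp. ZIC2 peaks were wider and covered more sequence in mixed segments, and the part of this in the overlap was not tested.

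POU5F1 peaks overlapped POU3F1 peaks less often in mixed segments. A POU3F1 peak overlapped 18.2% of POU5F1 peaks in mixed, 57.3% in family and 52.9% in other segments in EpiSCs, and 16.8%, 50.5% and 47.3% in activin-free EpiSCs. The share also differed with GC content. From 46% GC upwards it was 10.1% in mixed as well as in other segments in EpiSCs, at 42 to 46% GC it was 23.8% and 27.3%, and under 42% GC it was 50.7% and 68.0%. Seen from POU3F1, 36.7% of its peaks in mixed segments, 21.7% in family and 28.5% in other segments overlapped a POU5F1 peak in EpiSCs. In activin-free EpiSCs these shares were 58.1%, 53.6% and 54.7%. SOX2 peaks overlapped OTX2 peaks in 29.9% of cases in mixed, 11.8% in family and 11.5% in other segments in EpiSCs. Peaks that overlapped none of the other TFs made up 80.1% of ZIC2 and 46.9% of POU3F1 peaks in mixed segments, and 81% and 61% in other segments.

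**Figure D4:**
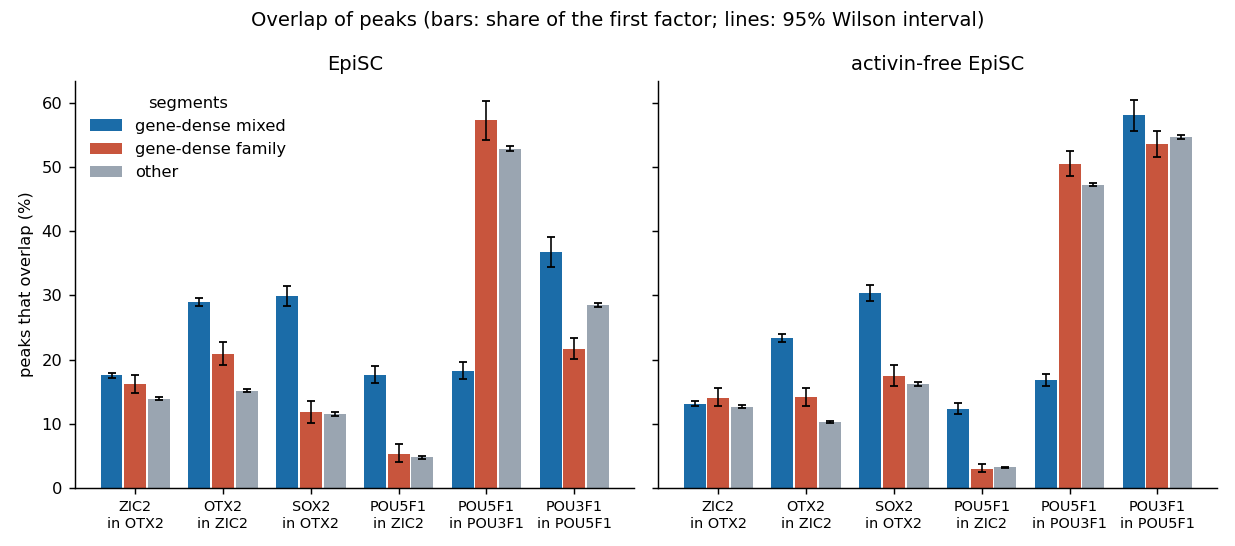
Share (%) of the peaks of the first-named TF that overlap a peak of the TF named after it, in EpiSCs (left) and activin-free EpiSCs (right). Bars are mixed, family and other segments, and lines 95% Wilson intervals for counting error. The POU5F1 peaks in POU3F1 drop to 18.2% in mixed segments in EpiSCs, and the OTX2 peaks in ZIC2 reach 29%.

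The share of the OTX2 list in gene-dense segments was lower in activin-free EpiSCs, whereas that of ZIC2 was nearly the same in both cultures. For each segment with at least 10 peaks in 1 of the cultures, its share of the list in activin-free EpiSCs was divided by that in EpiSCs, and segments past 1.5-fold were counted. For ZIC2, 0 of 276 gene-dense segments were past this limit in either direction, against 0.469% (higher) and 0.781% (lower) of all 1921 segments counted. For OTX2, 78 of 287 gene-dense segments (27.2%) had a lower share in activin-free EpiSCs, against 6.4% of all segments, and 16 (5.57%) a higher share, against 21% of all segments. Mixed segments carried this difference, with 77 of 233 lower and 1 higher, and a median log2 ratio of -0.45. Of 54 family segments, 15 were higher and 1 was lower, with a median of 0.21. In other segments the median was 0.19. Since shares within a list add up to 100%, a lower share in mixed segments goes with a higher share elsewhere.

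Over all gene-dense segments SOX2 and the POU TFs had fewer segments past the limit than OTX2. For SOX2, 39 of 253 gene-dense segments (15.4%) were higher in activin-free EpiSCs, against 8.09% of all segments, and 14 (5.53%) lower, against 4.02%. For POU5F1, 27 of 280 (9.64%) were higher, against 7.55%, and 19 (6.79%) lower, against 3.13%. Of these, 18 of the 54 family segments counted were higher and 0 lower, with a median log2 ratio of 0.32, whereas the median of mixed segments was -0.18. POU3F1 had enough peaks in only 104 gene-dense segments, of which 10 (9.62%) were higher, against 4.1%, and 6 (5.77%) lower, against 0.996%. With 1 library in each culture these are differences between libraries, and culture and library cannot be told apart.

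Peak by peak, most ZIC2 peaks of gene-dense segments recurred in the other culture. Of the ZIC2 peaks in EpiSCs, 81.2% overlapped a ZIC2 peak in activin-free EpiSCs, and 94.5% in the reverse direction, against 78.1% and 90.03% in other segments. Those without a counterpart had a median score of 74.3, against 307 for those with a counterpart. Among OTX2 peaks of mixed segments, 70.5% (69.9 to 71.2) in EpiSCs had a counterpart, fewer than the 79.8% of other segments. In the reverse direction 82.8% of mixed peaks and 65.6% of those in other segments had 1. The POU5F1 list of activin-free EpiSCs was longer, and 97.6% of POU5F1 peaks in EpiSCs recurred in it, while 49.5% of its gene-dense peaks were found in EpiSCs, near the 98.4% and 47.8% of other segments. SOX2 peaks of mixed segments found in activin-free EpiSCs alone had a midpoint within 1 kb of a gene start in 15.8% of cases, against 5.77% for those shared, and POU3F1 peaks in 22.2% against 3.95%. Other segments had the same order, with 2.25% against 1.10% for SOX2 and 1.70% against 0.331% for POU3F1. It also held for peaks of mixed segments found in EpiSCs alone, with 9.84% against 5.74% for SOX2 and 5.09% against 3.40% for POU3F1.

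Most family segments were poorer in ZIC2 peaks than mixed segments. Per Mb they held 44.1 ZIC2, 34.9 OTX2, 23.5 SOX2, 17.3 POU5F1 and 45.1 POU3F1 peaks in EpiSCs, and in other segments the values were 40.2, 37.6, 27, 26.4 and 47.8. The pooled ZIC2 value joins unlike segments. The 45 family segments under 42% GC held 19.7 ZIC2 peaks per Mb with a median of 15 per segment, whereas the 9 from 46% GC upwards held 1348 of the 2550 peaks, or 149.8 per Mb, and the median over all 58 was 23. With a family share of at least 60%, which 33 segments reached, the family densities were 22.64 for ZIC2, 21.83 for OTX2 and 64.99 for POU3F1, no longer close to those of other segments. In the 40 to 42% GC class, 23 family, 12 mixed and 447 other segments held 27.8, 32.5 and 23.0 ZIC2 peaks per Mb, and 25.3, 23.6 and 42.5 POU3F1 peaks per Mb. Median ZIC2 width was 883 bp in family segments, between the values of mixed (1005 bp) and other segments (826 bp), and the POU3F1 width of 1034 bp was like that of other segments (1041 bp).

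Olfactory receptor genes, which code for the odorant receptors of the nose, formed the largest group, with 865 receptor genes in 31 segments of 36.1 to 48.01% GC. These segments held 31.9 ZIC2 and 63.1 POU3F1 peaks per Mb in EpiSCs and 28.5 and 55.7 in activin-free EpiSCs. The ZIC2 density rested on few segments, since the median was 16 ZIC2 peaks per segment in EpiSCs and the segments at chr1:94000001-95000000, chr11:58000001-59000000 and chr7:147000001-148000000, of 44.5 to 48.01% GC, held 179, 115 and 100 of the 987 peaks. The highest POU3F1 numbers of all gene-dense segments were here. The segment at chr2:88000001-89000000 held 158 POU3F1 and 5 ZIC2 peaks in EpiSCs and 132 and 6 in activin-free EpiSCs, and all its 43 genes were olfactory receptors. At chr2:86000001-87000000, 50 of 50 genes were receptors, and the numbers were 149 and 7, and 143 and 5. Of the 865 receptor starts, 126 lay in POU3F1 peaks in EpiSCs and 161 in activin-free EpiSCs. POU5F1 peaks held 19 and 80, and ZIC2 peaks 4 in each culture. Of all starts in these segments, 11.5% and 14.8% lay in POU3F1 peaks, against 1.38% and 2.62% in other segments. The POU5F1 list held 59787 peaks in EpiSCs and 119526 in activin-free EpiSCs, and its density in these segments was 19.5 and 53.5 peaks per Mb. The part of peak density and list length in these counts was not tested. The highest-scoring POU3F1 peaks over receptor starts in EpiSCs were at Olfr1166 (4788 bp wide, score 2446), Olfr1158 (4108 bp, 2388) and Olfr305 (6682 bp, 2236), and in activin-free EpiSCs each of them scored 3100. Their starts had at most 1 CpG within 250 bp.

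Several other families of GC-poor segments also held more POU3F1 than ZIC2 peaks. The taste receptor segment, at chr6:132000001-133000000, held 94 POU3F1 and 15 ZIC2 peaks, and 11 of 17 receptor starts lay in a POU3F1 peak in EpiSCs and 10 in activin-free EpiSCs. The prolactin segment, at chr13:27000001-28000000, with 20 genes of placental and pituitary hormones, held 89 POU3F1 and 4 ZIC2 peaks, but none of its prolactin starts lay in a POU3F1 peak. The segment of keratin-associated proteins at chr16:88000001-89000000 held 113 and 17 peaks, in the same order of TFs. The late cornified envelope genes, which code for proteins of the outer skin layer, had 51 POU3F1, 49 SOX2 and 42 ZIC2 peaks in their segment.

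GC-rich families held many ZIC2 and few POU3F1 peaks. From 46% GC upwards, the 9 family segments held 149.8 ZIC2 peaks per Mb in EpiSCs, against 181 in mixed and 151.7 in other segments. Their OTX2 density of 62.7 peaks per Mb was also closer to that of other (58.6) than of mixed segments (91.1). The serpin segment, of 46.3% GC, held the fewest ZIC2 peaks of the 9, with 87, and 3 of 18 serpin starts lay in a ZIC2 peak. The kallikrein segment at chr7:51000001-52000000, with 25 genes of secreted serine proteases and 49.0% GC, held 186 ZIC2 and 4 POU3F1 peaks in EpiSCs, and 22 of 25 kallikrein starts lay in a ZIC2 peak, and 19 in activin-free EpiSCs. The keratin segment at chr15:101000001-102000000 held 195 ZIC2 peaks and no POU3F1 peak, with 14 of 24 keratin starts in a ZIC2 peak. Krt80, a keratin gene of this segment, had the highest-scoring ZIC2 peak over a start of a family gene in both cultures, with a score of 2180 in EpiSCs and 3100 in activin-free EpiSCs. Peak numbers were also high for ZIC2 in the segments of Ly6 genes (155 ZIC2 and 2 POU3F1 peaks), of WAP and seminal vesicle genes (160 and 1) and of the Bpif genes (146 and 0). Of the starts of these families, 3 of 10, 9 of 21 and 4 of 9 lay in a ZIC2 peak in EpiSCs.

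Histone segments were rich in OTX2 peaks although GC-poor. The 2 segments, with 47 histone genes and 41.4% median GC, held 107 OTX2, 59.5 SOX2 and 46 ZIC2 peaks per Mb in EpiSCs, the highest OTX2 and SOX2 densities of the 19 families, with the Bpif segment close in OTX2 at 103. Of the 47 histone starts, 42 lay in a ZIC2 peak, 13 in an OTX2 peak and 0 in a POU3F1 peak in EpiSCs, and 41, 14 and 0 in activin-free EpiSCs. Hist1h1c, which codes for a linker histone, had a ZIC2 peak of score 1924 in EpiSCs and 2706 in activin-free EpiSCs over its start. Hist1h2be had the highest-scoring OTX2 peak over a family gene start in EpiSCs, 1794 bp wide with a score of 564, and 671 in activin-free EpiSCs. The zinc finger segments, which code for DNA-binding proteins mostly of the KRAB type, had 21 of 37 starts in a ZIC2 peak and 12 in an OTX2 peak.

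Vomeronasal receptor segments, with genes of pheromone receptors, were poor in peaks on average but varied. In the 8 segments together, EpiSC lists held 14.1 ZIC2, 18.1 OTX2, 10.6 SOX2, 7.22 POU5F1 and 15.1 POU3F1 peaks per Mb. The segment at chr6:57000001-58000000, with 18 receptors among 23 genes, held 69 POU3F1, 35 SOX2 and 32 OTX2 peaks, and that at chr13:22000001-23000000 held 45 OTX2 and 31 SOX2 peaks. The adjacent segments from 21000001 to 24000000 of chromosome 7, with 26, 25 and 22 genes, held 1, 8 and 8 peaks of all 5 TFs together in EpiSCs and 6, 12 and 11 in activin-free EpiSCs. Sequence in several copies moved with this. Words of 31 bases, taken every 1000 bases, occurred more than once on chromosomes 1 to 19 in 97.2%, 97.9% and 98.3% of cases in these 3 segments, against a median of 10.4% over mixed and 12.8% over other segments. The median was 43.9% over the 8 vomeronasal and 23.8% over the 31 olfactory receptor segments. The 3 mixed segments with at least 90% repeated words held 100 to 137 peaks in EpiSCs, with a median of 121. In the 219 mixed segments under 40% repeated words, the median was 271 and the minimum 113. These mixed segments also differed in GC content, with medians of 42.37% in the 3 and 46.99% in the 219. The contrast was not made at like GC content, and the part of GC content in it was not tested. The olfactory receptor segment at chr19:13000001-14000000, with 37 receptor genes, had 27.6% repeated words and 10 peaks, 6 of them of POU3F1, while the segment at chr7:110000001-111000000 had 30% and 192 peaks. The part of read mapping in these numbers was not tested.

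**Figure D5:**
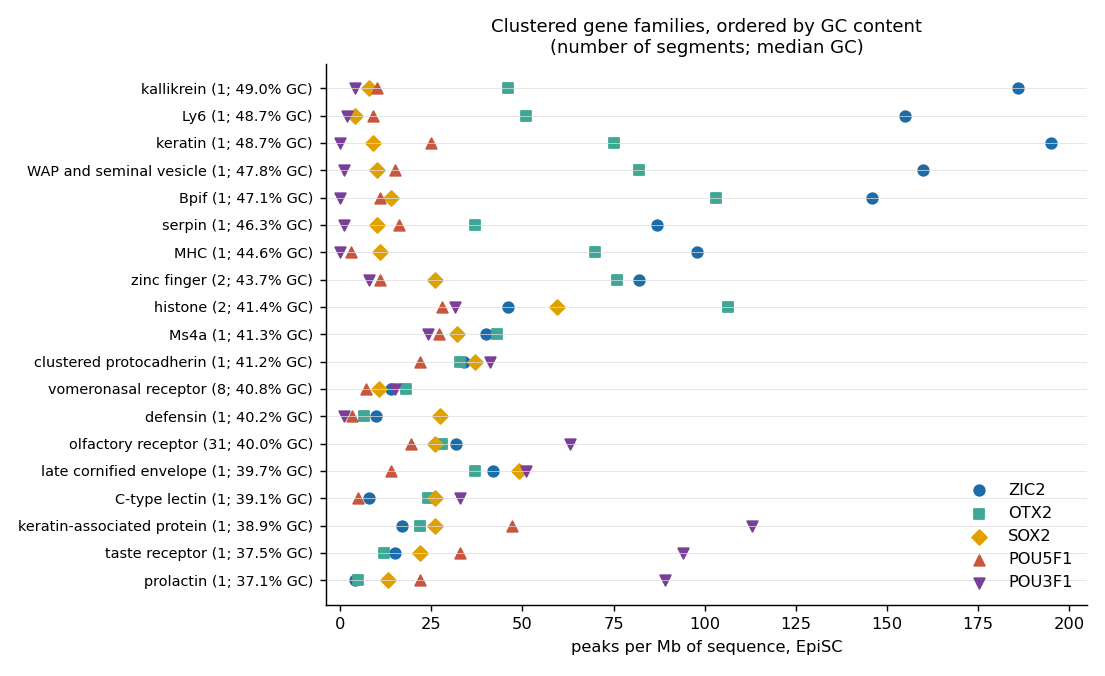
Peaks per Mb in EpiSCs (horizontal axis) for the 19 gene families that made up at least 40% of the genes of a gene-dense segment, ordered by the median GC content of their segments. Symbols are TFs, and the number of segments stands beside each family. ZIC2 exceeds 80 peaks per Mb in the GC-rich families at the top, POU3F1 is highest in the keratin-associated protein, taste receptor and prolactin segments, and vomeronasal receptors and defensins are low for most TFs.

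The mixed segments with the fewest ZIC2 peaks held 9 to 15 in EpiSCs, and some were near the family limit or rich in repeated words. The lowest was at chr4:143000001-144000000, where 9 of 27 genes belonged to the Prame family, with 9 ZIC2, 11 OTX2 and 0 POU3F1 peaks and 52.7% repeated words. At chr1:175000001-176000000, with 9 interferon-activated genes among 25, 11 ZIC2 and 68 POU3F1 peaks were listed in EpiSCs. The most POU3F1-rich mixed segment, chr5:88000001-89000000, contains the casein genes Csn1s1, Csn2 and Csn3, which code for milk proteins, and held 93 POU3F1 and 15 ZIC2 peaks in EpiSCs and 77 and 13 in activin-free EpiSCs. These mixed segments were looked for after their values were seen. They had 38.1 to 41.8% GC, below the lower quartile of mixed segments, 44.9%.

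Centres of ZIC2 and POU3F1 peaks differed little in median GC content between kinds of segments. In the central 200 bp of ZIC2 peaks in EpiSCs the median GC content was 56% in mixed, 55.5% in family and 54.5% in other segments, against 46.5%, 40.5% and 41.5% over adjoining 200 bp windows of the same segments. At least 3 CpGs were found in 58.3% of ZIC2 centres in mixed and 50.3% in other segments. POU3F1 centres had a median GC content of 33% in mixed and other segments and 31.5% in family segments. POU5F1 centres differed more, with 37.5% in mixed, 32.5% in family and 34.5% in other segments in EpiSCs. At least 3 CpGs were found in 20.5%, 9.19% and 12.6% of POU5F1 centres, in the same order of segments. The shares were 18.4%, 10.5% and 11.6% for SOX2, and 9.03%, 2.95% and 7.88% for POU3F1.

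The binding letters were searched in the same 200 bp, on both strands, and a match is a description of letters, not a site. CCTGCTG occurred in 17.5% (17.1 to 17.9) of ZIC2 centres in mixed and 19.6% (19.3 to 19.9) in other segments in EpiSCs. The share of all windows that held it was 6.16% and 3.86%, so the excess was 2.84-fold in mixed and 5.07-fold in other segments. GGATTA was found in 22.9% of OTX2 centres in mixed and 23.6% in other segments, against 9.32% and 7.83% of windows. The SOX letters were in 58.2% and 57.2% of SOX2 centres, against 24.6% and 28.7% of windows. The octamer letters occurred in 7.73% of POU5F1 and 7.81% of POU3F1 centres in mixed segments, 5.03 and 5.08 times the 1.54% of windows. In other segments the shares of 8.72% and 7.15% were 3.39 and 2.78 times the 2.57% of windows. In olfactory receptor segments, the octamer letters were in 6.19% of POU3F1 centres, 2.18 times the 2.83% of windows, and CCTGCTG was in 20.1% of the 987 ZIC2 centres, 6.22 times the 3.22% of windows.

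The highest-scoring peaks of each TF that recurred in activin-free EpiSCs named the following genes. ZIC2 peaks of score 3233 lay in introns of Fam129b, 1261 bp downstream of the start, and of Palm, which codes for a membrane-associated phosphoprotein, 560 bp downstream of the start. They were 3842 and 2690 bp wide, and their counterparts scored 3100. The next lay 1980 bp upstream of Gm17671 and 9909 bp upstream of Grid2ip. OTX2 peaks scored 2098 in an intron of Ctcf, the gene of the insulator protein, and 1830 in an intron of Ybx1, which codes for an RNA-binding protein. The Ybx1 peak was 9422 bp wide in EpiSCs and 9655 bp in activin-free EpiSCs. The highest OTX2 score, 2862, was over an exon of 1700030F18Rik.

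SOX2 and POU3F1 peaks met near Zfp820, a zinc finger gene on chromosome 17, 26.6 and 25.8 kb downstream of its start. The SOX2 peak scored 987 in EpiSCs and 1120 in activin-free EpiSCs, and the POU3F1 peak was 6015 bp wide and scored 3100 in both cultures. Further SOX2 peaks were closest to AI607873, Vmn2r85 and Gm8126, with scores of 915, 896 and 764, and these 4 segments had 37.7 to 41.5% GC. POU3F1 peaks of score 3100 were closest to Iqcb1, Ifi202b and Grik1, in segments of 41.6, 39.1 and 38.9% GC. POU5F1 peaks of score 3100 were closest to Gm10654, Gm11735, Crtc3 and Mrps18a, in segments of 47.1 to 50.1% GC. Scores of 3100 were tied, and the tied peaks were ordered by width.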

How the data were processed

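ChIP-seq peaks of 5 TFs in EpiSCs and activin-free EpiSCs were analysed as 10 deposited peak lists, 1 for each library. The authors used Bowtie2 for alignment against mm9 and MACS, with input DNA as reference, for peak calling, and the deposited score is 10 times the negative log10 of the MACS p-value, between 50 and 3233. Input reads and read depth were not used here. Peaks on chromosomes 1 to 19 were assigned by midpoint to 1 Mb segments, and gene starts, families and GC content were taken from GENCODE vM1 and the NCBIM37 genome (Python 3.11.15, pandas 2.3.3, numpy 2.4.6, scipy 1.17.1, matplotlib 3.10.9). The counting steps were tested on simulated data. The members and lists were chosen with earlier results of these data known.

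With 1 library a group, values are descriptions with 95% Wilson intervals for counting error. Named segments were the 5 with most genes, the 5 highest and 5 lowest in ZIC2 and the 5 highest in POU3F1 peaks in EpiSCs, and the leading segment of each family. Named genes were those closest to the 4 highest-scoring recurring peaks of each TF. For OTX2, 1 of them is not reported here. The genome file does not mark repeats, so sequences could not be limited to unique bases. Alternatives covered the gene number, the score, the bin position, the gap, the overlap and the family share.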

Additional observations from a re-analysis of the deposited data

How the results depend on the processing

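Ratios of gene-dense over other segments are given for EpiSCs unless stated. From 25 gene starts (186 segments), the ratio of peak density was 2.853 for ZIC2, 1.956 for OTX2 and 0.3254 for POU3F1, and in activin-free EpiSCs 2.924 for ZIC2, 0.6959 for SOX2 and 0.3378 for POU3F1. With scores of at least 100 it was 3.389 for ZIC2, 2.243 for OTX2, 0.5475 for SOX2 and 0.2818 for POU3F1, and in activin-free EpiSCs 3.374, 1.545, 0.6084 and 0.2925. With bins from position 500000 (303 segments) it was 0.6405 for SOX2, and 0.6909 in activin-free EpiSCs. With scores of at least 100 the width ratios were 1.173 (ZIC2), 1.044 (OTX2), 0.9923 (SOX2), 0.9594 (POU5F1) and 0.9719 (POU3F1), and in activin-free EpiSCs 1.16, 1.039, 0.9846, 0.9254 and 0.9655. In the top 50000 peaks the score ratios were 1.158 for ZIC2, 1.06 for OTX2 and 0.8938 for POU3F1, and in activin-free EpiSCs 1.142, 1.052 and 0.8682, with 0.9373 for SOX2. Between peak edges the gap ratios were 0.381 for ZIC2 and 0.521 for OTX2, and in activin-free EpiSCs 0.3762 for ZIC2, 0.6492 for OTX2, 1.805 for POU5F1 and 1.385 for POU3F1. With 50% of both peaks shared, the ZIC2 overlap with OTX2 reversed to 0.9853, and in activin-free EpiSCs the ratio was 0.9924, also under 1. OTX2 overlap with ZIC2 was 1.474 and POU5F1 overlap with POU3F1 0.5651, with 0.6131 in activin-free EpiSCs. POU3F1 overlap with POU5F1 went from below 1 to 1.038 in EpiSCs, and was 1.056 in activin-free EpiSCs. At a family share of 60%, 33 segments were family segments, with 22.64 ZIC2, 21.83 OTX2 and 64.99 POU3F1 peaks per Mb. The causes were not tested. No paired analysis was possible because each group had 1 library and no test was made. Differences between cultures have no replicate error, and read depth and mappability of repeated sequence limit the peak numbers to an unknown extent.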
